A study of Homo sapiens with 6 samples.

Results

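The 8 genes described here are the STEAP metalloreductase genes STEAP1, STEAP2, STEAP3 and STEAP4 and the iron-handling genes HEPH, TFRC, SLC40A1 and SLC11A2, out of 16704 genes measured. They were taken by symbol, and the brightest feature over all 6 arrays was to stand for a gene with several. Each of the 8 had 1 array feature that names it alone, so no choice by brightness was made. The genes were grouped with earlier results of these arrays in view, so the tests on them below are a description from the fit over all genes and not independent support. The samples were LNCaP clones, an androgen-responsive human prostate cancer line, stably transfected with a hairpin vector and selected by neomycin resistance, which the control clones carried too. They were 3 MBD2 knockdown clones, with shRNA directed against MBD2, and 3 scrambled shRNA control clones, with 1 array of cytoplasmic RNA each. MBD2 binds methylated CpG dinucleotides, and the series asks which genes depend on it in cancer cells. Each clone is 1 transfectant, so within a clone its own traits and an effect of the hairpin cannot be told apart, and in bulk RNA fewer expressing cells and less RNA per cell cannot be told apart either.

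STEAP proteins sit in the plasma membrane and in endosomes and pass electrons across the membrane to ferric iron and cupric copper. STEAP2, STEAP3 and STEAP4 take these electrons from NADPH, while STEAP1 lacks the NADPH-binding domain; STEAP1 and STEAP2 are abundant in prostate epithelium and prostate cancer. Iron enters most cells as ferric iron on transferrin through the receptor TFRC, is reduced in endosomes, and leaves these through the ferrous transporter SLC11A2. Ferrous iron leaves the cell through SLC40A1, or ferroportin, and the copper-containing ferroxidase HEPH, or hephaestin, oxidises it on the outside.

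Promoter sequences of the STEAP genes of chromosome 7 and of HEPH are shown because MBD2 reads methylated CpG, and because STEAP4 and HEPH are the members with the largest differences between clones. They are RefSeq sequences of the 250 bases before an annotated start in GRCh38.p14, given from the gene's own strand, with CpG dinucleotides in capitals. The STEAP4 stretch is chr7:88306895-88307144 on the minus strand, the HEPH stretch chrX:66163997-66164246 on the plus strand, the STEAP1 stretch chr7:90154219-90154468 on the plus strand and the STEAP2 stretch chr7:90211490-90211739 on the plus strand. The start used for HEPH lies inside the annotated gene, so other starts of it are not shown.
STEAP4: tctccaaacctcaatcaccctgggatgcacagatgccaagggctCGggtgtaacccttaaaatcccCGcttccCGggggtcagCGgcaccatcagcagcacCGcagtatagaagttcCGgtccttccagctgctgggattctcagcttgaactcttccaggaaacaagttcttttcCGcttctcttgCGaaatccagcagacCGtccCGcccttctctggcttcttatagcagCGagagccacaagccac
HEPH: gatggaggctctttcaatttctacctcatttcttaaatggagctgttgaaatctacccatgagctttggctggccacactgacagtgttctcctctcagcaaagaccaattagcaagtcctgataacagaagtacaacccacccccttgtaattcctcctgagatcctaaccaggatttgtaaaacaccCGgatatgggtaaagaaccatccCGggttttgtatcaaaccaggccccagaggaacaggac
STEAP1: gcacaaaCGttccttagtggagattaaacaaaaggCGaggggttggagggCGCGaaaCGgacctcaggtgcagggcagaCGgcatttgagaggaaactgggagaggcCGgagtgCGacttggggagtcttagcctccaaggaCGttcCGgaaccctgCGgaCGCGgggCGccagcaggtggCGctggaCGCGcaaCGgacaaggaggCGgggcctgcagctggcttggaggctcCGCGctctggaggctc
STEAP2: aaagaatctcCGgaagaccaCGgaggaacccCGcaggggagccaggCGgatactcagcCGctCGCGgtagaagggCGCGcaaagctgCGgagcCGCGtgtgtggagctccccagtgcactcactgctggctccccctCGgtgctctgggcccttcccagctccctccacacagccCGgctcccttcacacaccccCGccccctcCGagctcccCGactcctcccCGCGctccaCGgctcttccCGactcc
The STEAP4 stretch holds 11 CpG and the HEPH stretch 2, against 21 each in STEAP1 and STEAP2. Among the 13351 promoters of measured genes the median was 18 CpG, and 32% had as few as STEAP4 or fewer and 11.2% as few as HEPH or fewer. The other members were at 25 CpG for STEAP3, 29 for TFRC, 38 for SLC40A1 and 21 for SLC11A2. The pair of genes that differed most between clones has the fewest CpG of the 8 in these windows. SLC40A1, next by range over the 6 arrays (1.18 on the log2 scale), has the most, at 38. These counts say nothing of methylation, as no methylation values were analysed here. The half-site letters of the androgen response element, AGAACA or its reverse complement TGTTCT, occur once in the HEPH window and in none of the other 7 members' windows, and 8.73% of all these promoters hold one or the other.

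The knockdown itself was of similar depth in each clone. MBD2 (feature 8023382) had log2 values of 7.68, 7.84 and 7.81 in knockdown clones 1, 2 and 3, against 8.73, 9.24 and 9.20 in control clones 1, 2 and 3, which put the knockdown clones at 0.385, 0.43 and 0.421 times the control mean. Of the fixed luminal prostate markers 6 of 10 were measured, KRT8, KRT18, HOXB13, KLK2, KLK3 and ACP3, and their mean log2 level lay between 8.86 and 9.18 in the knockdown clones and between 8.78 and 9.30 in the controls. That of the macrophage, erythroid and fibroblast markers lay between 4.05 and 4.75 in the knockdown clones and between 4.08 and 4.65 in the controls. Each such mean was below its array's lower quartile (4.70 to 4.81 in the knockdown clones and 4.68 to 4.72 in the controls). Single genes among them stood higher. COL1A1 was at 7.11 to 7.44 in the knockdown clones and 7.04 to 7.11 in the controls. CD68 was at 6.19 to 6.71 in the knockdown clones and 6.125 to 6.41 in the controls. The mean of 3 measured basal markers lay between 4.93 and 4.98 in the knockdown clones and between 4.70 and 4.75 in the controls. Hepatocyte markers stood higher, through ALB and TTR, at 5.75 to 6.61 in the knockdown clones and 5.19 to 6.07 in the controls, lowest of the knockdown clones in clone 2. Of all pairs of clones, knockdown clones 2 and 3 differed least, with an SD over genes of 0.185 for their difference, against 0.224 to 0.350 for the other pairs. The pairs with knockdown clone 1 ran from 0.273 to 0.350. Its array also had the narrowest spread of values, with an SD of 2.0 against 2.05 to 2.07 on the others. With 1 array per clone, traits of a clone and of its array or RNA cannot be told apart.

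STEAP4 and HEPH were high in knockdown clones 2 and 3 and stayed at the control level or below it in knockdown clone 1, while the other STEAP genes and the uptake genes differed little in any clone. None of the 8 genes passed limma's test between the groups at an adjusted p under 0.05 (0 of 8), as none of all genes did (0.0%). At an unadjusted p under 0.05 only HEPH counted, 1 of 8, where 9.39% of all genes did. No member had groups that did not overlap (0 of 8, against 15.4% of all genes). A plain equal-variance test gave 0 of 8 at either threshold. Of all 16704 genes, 1409 had an unadjusted p under 0.05 in that test and 0 passed adjusted. At such a share a count of 0 of 8 does not set the members apart. Of the 8, 5 had lower and 3 higher means in the knockdown clones, against 51.3% of all genes with a lower mean, and the median log2 fold change was -0.025 for the 8 and -0.0044 for all genes.

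**Figure D1:**
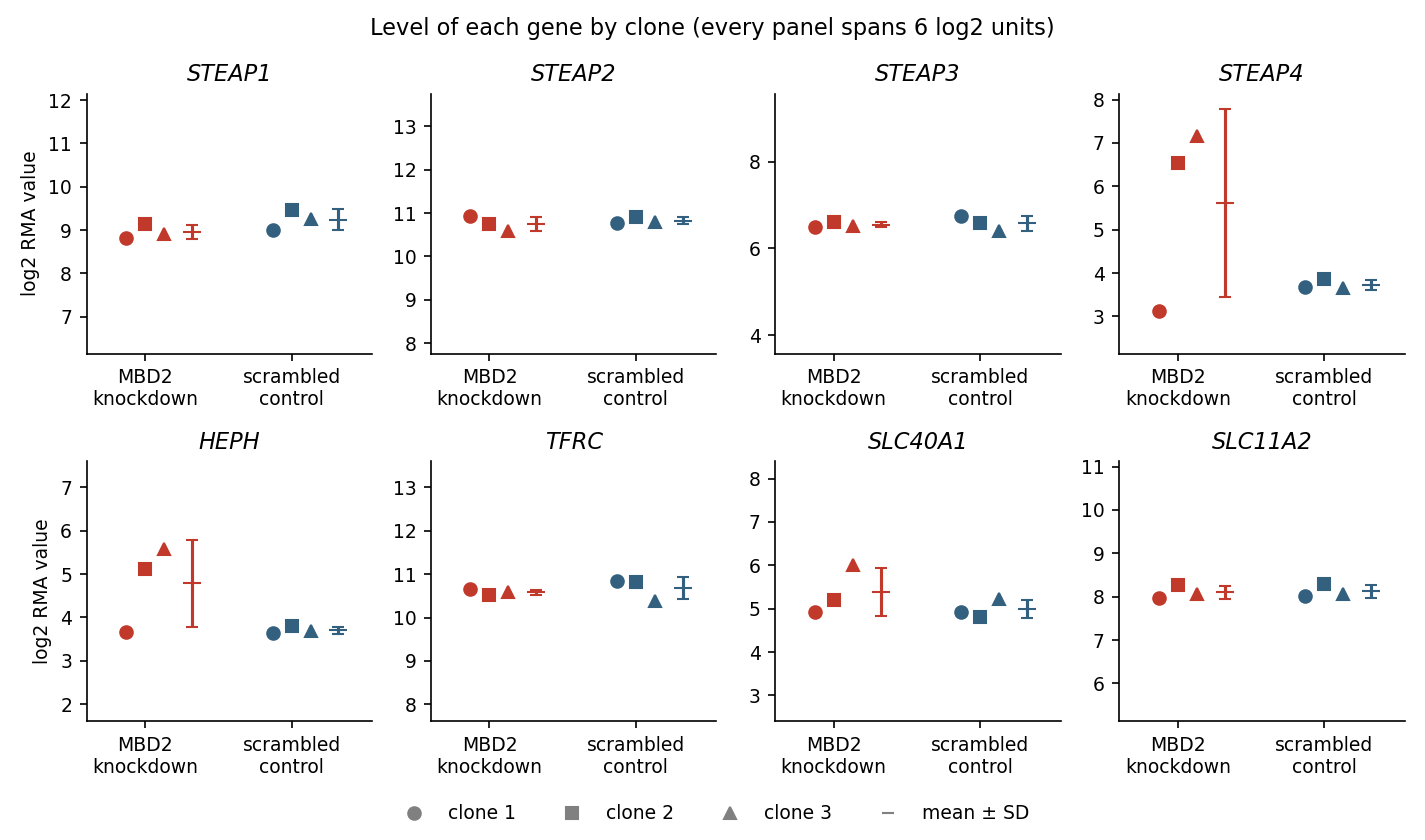
Log2 RMA value of each of the 8 genes (vertical axis, every panel spanning the same range) in the 3 MBD2 knockdown clones (red, left) and the 3 scrambled control clones (blue, right), with marker shapes for clones 1, 2 and 3 and bars for mean ± SD. STEAP4 reaches 6.55 and 7.15 and HEPH 5.12 and 5.58 in knockdown clones 2 and 3, with clone 1 at 3.13 and 3.65, near the controls.

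Among the reductases, STEAP4 (feature 8140840), a ferric and cupric reductase also known for its part in inflammation and metabolism of fat tissue, varied most. It stood at log2 values of 3.13, 6.55 and 7.15 in knockdown clones 1, 2 and 3, against 3.67, 3.86 and 3.65 in control clones 1, 2 and 3. Clones 2 and 3 thus lay far above every control and clone 1 below every control, so the groups overlapped. Relative to the control mean the level was 0.66 times in knockdown clone 1, 7.07 times in clone 2 and 10.7 times in clone 3. All 3 control values and that of knockdown clone 1 were under the lower quartile of their arrays, a range in which array values can understate fold differences.

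The mean of STEAP4 was 5.61 ± 2.17 in the knockdown clones and 3.73 ± 0.12 in the controls (SD, n = 3 each). This is a log2 fold change of 1.88 with an SE of 0.92 and a 95% interval of -0.27 to 4.03 (limma, adjusted p = 0.586). The difference between the group means was smaller than the SD among the knockdown clones. By that SD STEAP4 ranked 2 of 16704 genes, and by its SD among the control clones 6880. Its range over all 6 arrays, 4.03 on the log2 scale, ranked 7.

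STEAP1 (feature 8134030), a cell-surface antigen of prostate cancer that works with other STEAP proteins, had log2 values of 8.83, 9.15 and 8.90 in knockdown clones 1, 2 and 3, against 8.996, 9.47 and 9.25 in the controls. Knockdown clones 1 and 3 lay below all controls, and clone 2 lay within their range. The log2 fold change was -0.28 (SE 0.14, 95% interval -0.62 to 0.05, adjusted p = 0.597 in limma).

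STEAP2 (feature 8134036), a reductase of the Golgi, endosomes and plasma membrane, had 10.92, 10.75 and 10.59 in knockdown clones 1, 2 and 3, against 10.76, 10.92 and 10.78 in the controls. Its knockdown values were the lowest in clone 3, where STEAP4 was highest, and clone 1 was about as high as the highest control. The log2 fold change was -0.066 (SE 0.10, 95% interval -0.31 to 0.18, adjusted p = 0.892 in limma).

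STEAP3 (feature 8044793), known from mice as the ferric reductase of endosomes in red cell precursors, had 6.50, 6.62 and 6.52 in the knockdown clones and 6.74, 6.58 and 6.41 in the controls. All 3 knockdown clones lay inside the range of the controls. The log2 fold change was -0.029 (SE 0.10, 95% interval -0.27 to 0.21, adjusted p = 0.959 in limma).

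On the export side, the ferroxidase gene HEPH (feature 8167973) followed the clones as STEAP4 did. It read 3.65, 5.12 and 5.58 on the log2 scale in knockdown clones 1, 2 and 3, against 3.63, 3.80 and 3.69 in the controls. Clone 1 lay among the controls, while clone 2 was 2.67 times and clone 3 3.67 times the control mean. The control values and that of knockdown clone 1 were again under the lower quartile of their arrays. HEPH averaged 4.78 ± 1.01 in the knockdown clones and 3.70 ± 0.08 in the controls (SD, n = 3 each). The log2 fold change was 1.08 (SE 0.43, 95% interval 0.07 to 2.09, adjusted p = 0.499 in limma). By its SD among knockdown clones HEPH ranked 44 of 16704 genes.

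SLC40A1 (feature 8057677), the iron exporter, was high in 1 knockdown clone. The log2 level was 4.93, 5.20 and 5.996 in knockdown clones 1, 2 and 3, against 4.92, 4.82 and 5.23 in the controls. Only clone 3 exceeded every control, at 2.01 times the control mean, and clone 2 lay just under the highest control. The log2 fold change was 0.39 (SE 0.26, 95% interval -0.22 to 1.00, adjusted p = 0.704 in limma), and leaving out knockdown clone 3 gave 0.081 and leaving out clone 1 gave 0.61, with no pass in either.

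The uptake genes had smaller differences. TFRC (feature 8093053), the transferrin receptor, whose mRNA is stabilised by iron regulatory proteins when iron is scarce, had 10.65, 10.52 and 10.58 in the knockdown clones and 10.83, 10.83 and 10.38 in the controls. The spread of the controls, set by clone 3, was wider than that of the knockdown clones and enclosed it. Its log2 fold change was -0.098 (SE 0.13, 95% interval -0.41 to 0.21, adjusted p = 0.869 in limma), and without control clone 3 it was -0.25 (adjusted p = 0.677). SLC11A2 (feature 7963212), the ferrous iron transporter, had 7.97, 8.27 and 8.07 in the knockdown clones and 8.02, 8.29 and 8.07 in the controls, a log2 fold change of -0.021 (SE 0.11, 95% interval -0.29 to 0.24, adjusted p = 0.974 in limma). Knockdown clones 2 and 3 lay within the range of the controls for SLC11A2, and clone 1 just below it.

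Counted clone by clone, 0 of 8 members were at least 2-fold above the control mean in knockdown clone 1 (0.239% of all genes), 2 of 8 in clone 2 (0.323%) and 3 of 8 in clone 3 (0.718%). No member was at least 2-fold below it in any knockdown clone (0.419%, 0.233% and 0.329% of all genes in clones 1, 2 and 3). STEAP4 and HEPH were among the 34 genes, 0.204% of all, that were at least 2-fold above in both clones 2 and 3 and not in clone 1. Without a minimum size, clones 2 and 3 lay above every control and clone 1 did not in 2 of 8 members, STEAP4 and HEPH, and in 7.72% of all genes. These shares describe the clones, and the members were grouped with such values in view.

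**Figure D2:**
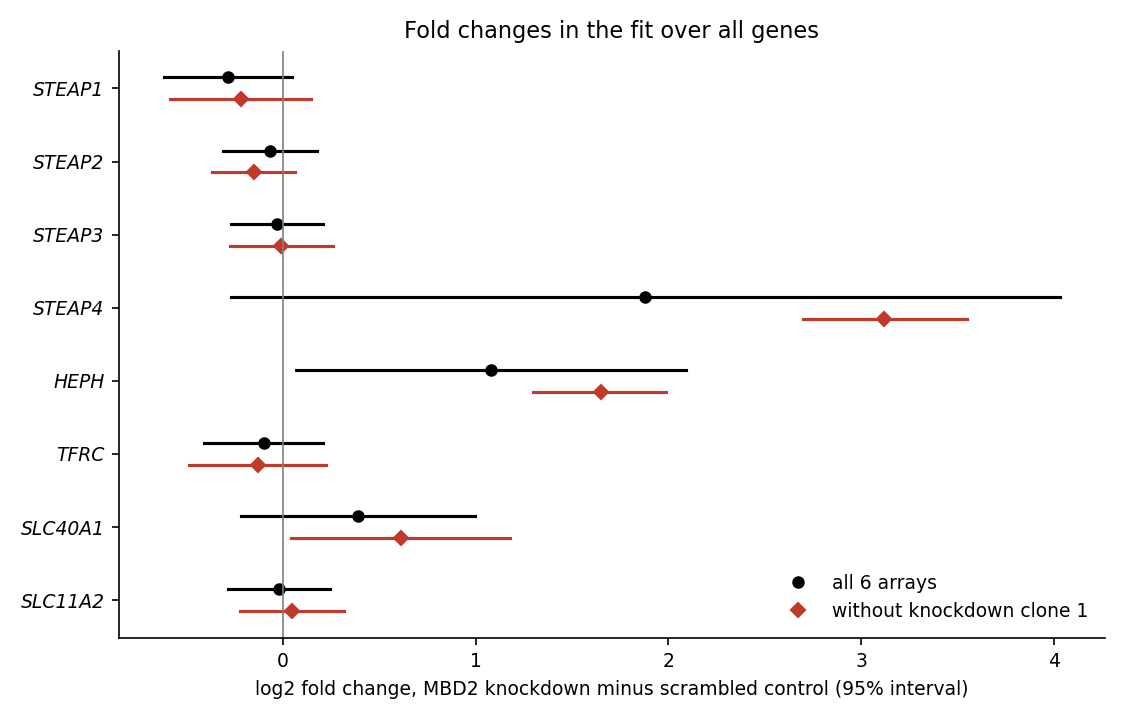
Log2 fold change of each gene, MBD2 knockdown minus scrambled control, with its 95% interval from limma, over all 6 arrays (black) and without knockdown clone 1 (red). STEAP4 and HEPH are at 1.88 and 1.08 with wide intervals over all arrays, and at 3.12 and 1.65 with narrow ones without clone 1.

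The call on STEAP4 and HEPH rested on knockdown clone 1. Without it STEAP4 had a log2 fold change of 3.12 (SE 0.18, adjusted p = 0.0039 in limma) and HEPH 1.65 (SE 0.14, adjusted p = 0.0232), both past the threshold together with 0.419% of all genes. The knockdown side of that fit is the pair of clones that differed least. Array weights from limma were 0.252 for knockdown clone 1, 3.43 for clone 2 and 0.976 for clone 3, so clone 2 counted most on the knockdown side. In limma with these weights STEAP4 (2.74, adjusted p = 0.0388) and HEPH (1.42, adjusted p = 0.0342) passed with 1.95% of all genes. With clones 2 and 3 averaged as 1 replicate beside clone 1 neither passed (adjusted p = 0.823 for STEAP4 and 0.808 for HEPH), and leaving out clone 2 or clone 3 gave STEAP4 values of 1.41 and 1.11. MBD2 stood at 7.68 in knockdown clone 1, 7.84 in clone 2 and 7.81 in clone 3, and the part of its level in the STEAP4 and HEPH values was not tested.

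The genes most like STEAP4 over the 6 arrays were RSRP1 (Pearson r = 0.998), GON4L (0.997) and SEC24A (0.996), and those most like HEPH were ECHDC2 (0.998), SUPT4H1 (0.998) and HACL1 (0.995). These correlations rest on knockdown clones 2 and 3 standing above the other 4 arrays. All 6 arrays share 1 normalization, and r was over 0.95 for 121 genes with STEAP4 and 120 with HEPH. The sizes were unequal: RSRP1 spanned 0.97 on the log2 scale over the arrays, HACL1 0.71, SUPT4H1 0.38, ECHDC2 0.35, SEC24A 0.34 and GON4L 0.33, against 4.03 for STEAP4 and 1.95 for HEPH. RSRP1, for example, had 6.26, 7.11 and 7.23 in knockdown clones 1, 2 and 3, against 6.33, 6.38 and 6.35 in the controls.

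The measured genes on each side of STEAP4 did not show differences of its size. STEAP1 and STEAP2 are adjacent measured genes, with 2 measured genes between STEAP4 and STEAP1, the pseudogene DPY19L2P4 and ZNF804B. Relative to the control mean, ZNF804B was at 0.0044, -0.24 and -0.094 on the log2 scale in knockdown clones 1, 2 and 3 and DPY19L2P4 at -0.25, 0.025 and 0.034. On the other side SRI, a calcium-binding protein, was at -0.047, 0.40 and 0.16, with clones 2 and 3 above every control and clone 1 among them, and ADAM22, a membrane protein of the nervous system, at 0.32, 0.18 and 0.12. STEAP4 itself was at -0.60, 2.82 and 3.43. CFAP69, the gene after STEAP2, was at 0.15, 0.25 and 0.51, and GTPBP10 at -0.27, -0.028 and 0.071.

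Next to HEPH on the X chromosome, VSIG4 was at 0.012, 0.094 and 0.0061 in knockdown clones 1, 2 and 3 and MSN, which links actin to the membrane, at -0.25, -0.13 and -0.085. On the other side EDA2R, a receptor of the tumour necrosis factor receptor family, was low in every knockdown clone and in 1 control: its log2 value was 4.43, 4.34 and 4.17 in the knockdown clones, against 4.49, 6.76 and 7.59 in control clones 1, 2 and 3. YIPF6 was at -0.019, -0.15 and -0.060. HEPH, at -0.052, 1.41 and 1.88, was thus the only gene of these 5 to stand at least 2-fold above the control mean in clones 2 and 3, and EDA2R did not share its pattern. ZC4H2, chosen after its values were seen, lies further along on the VSIG4 side. It had 4.97 in knockdown clone 1, 7.83 in clone 2 and 8.05 in clone 3, against 7.75, 6.83 and 6.88 in the controls. Its clones 2 and 3 thus lay above every control, as for HEPH, but less than 2-fold above the control mean (0.67 and 0.90 on the log2 scale). Its clone 1 lay below every control.

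**Figure D3:**
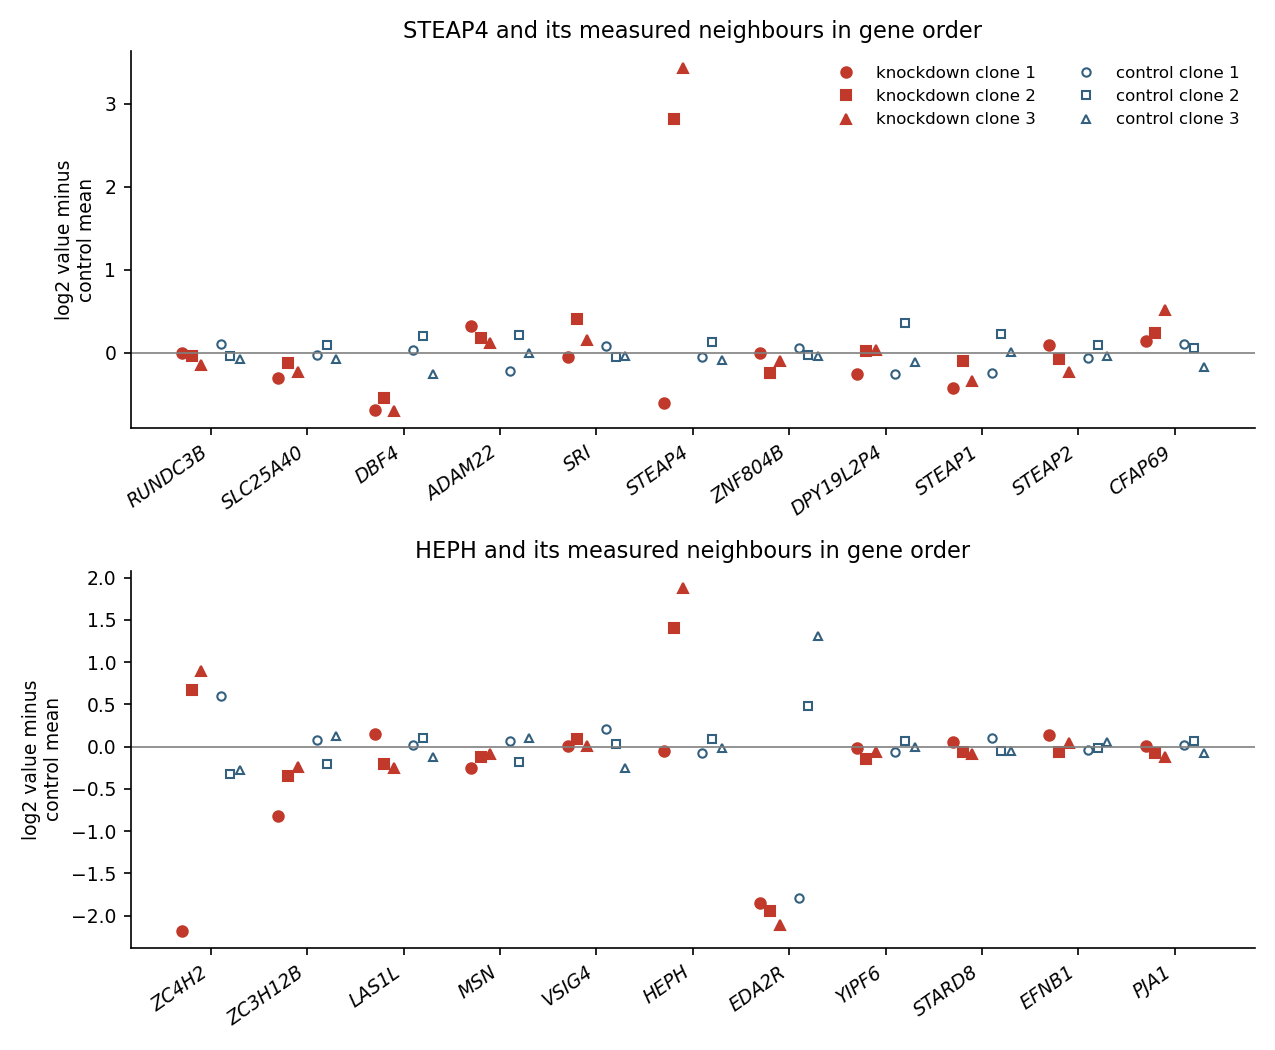
Log2 value minus the control mean (vertical axis) of STEAP4 (top) and HEPH (bottom) and of the 5 nearest measured genes on each side in RefSeq gene order, with knockdown clones in filled red and control clones in open blue. STEAP4 at 2.82 and 3.43 and HEPH at 1.41 and 1.88 in clones 2 and 3 stand above their neighbours, and EDA2R is low in the knockdown clones and in control clone 1.

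The nearest genes of the other members were near the control mean in most clones. Beside STEAP3, TMEM37 was at -0.14, 0.65 and 1.17 in knockdown clones 1, 2 and 3, DBI, which binds acyl-CoA, at -0.24, -0.13 and -0.14, C1QL2 at 0.26, 0.073 and 0.15 and MARCO at 0.28, -0.0016 and 0.0095. Beside TFRC, TNK2, MUC4, LINC00885 and ZDHHC19 had log2 fold changes of -0.063, -0.024, 0.017 and 0.22. Beside SLC40A1, WDR75, COL5A2, ASNSD1 and ANKAR had -0.046, 0.058, -0.057 and -0.20, and beside SLC11A2, TMT1A, TMPRSS12, LETMD1 and CSRNP2 had -0.089, -0.097, 0.34 and -0.13. None of these passed limma's threshold, and TMEM37 alone among them stood at least 2-fold above the control mean, in clone 3. Clones 2 and 3 of TMEM37 lay above every control, as for HEPH, and clone 1 among the controls. In 7.72% of all genes clones 2 and 3 lay above every control and clone 1 did not. Groups did not overlap for LETMD1, higher in the knockdown clones, and DBI, lower, as in 15.4% of all genes in either direction.

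Among the wider iron, haem, iron-sulfur, copper and ferroptosis genes no difference was as large as those of STEAP4 and HEPH. Of 110 such genes measured outside the members, 0 passed limma's threshold over all genes, and at an unadjusted p under 0.05 there were 2 higher (3.93% of all genes) and 10 lower (5.45% of all genes), together 10.9% against 9.39% of all genes. None (0 of 110) was at least 2-fold above the control mean in both clones 2 and 3, where 0.245% of all genes were, a share too small for this count to set the 110 apart. Clones 2 and 3 lay above every control and clone 1 did not in 5 of the 110, or 4.55%, against 7.72% of all genes: the copper-handling gene COMMD1, FTL, PCBP3, CDC42BPA and NFS1, named after their values were seen. COMMD1 had 6.97, 7.69 and 7.78 in knockdown clones 1, 2 and 3, against 7.41, 7.32 and 7.29 in the controls. The largest deviation from the control mean in either direction was 0.96 in knockdown clone 1, 0.78 in clone 2 and 0.74 in clone 3. Their median log2 fold change was -0.073.

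Of 13 genes of iron uptake and endosomal release 4 had a higher mean in the knockdown clones and 9 a lower one, and the median was -0.062. For this and the next lists, 51.3% of all genes had a lower mean. The metal transporter SLC39A8 had a log2 fold change of -0.13, EXOC6, part of the complex that docks vesicles, -0.24, and transferrin itself, TF, 0.14. Of 9 other reductases 6 were lower, with a median of -0.016. FRRS1, a ferric reductase of the cytochrome b561 family, had 7.89, 7.57 and 7.67 in the knockdown clones, against 8.11, 8.13 and 8.16 in the controls, with every knockdown clone below every control (log2 fold change -0.43, SE 0.10, adjusted p = 0.288 in limma). It did pass with array weights (-0.53, adjusted p = 0.0272). The reductase genes CYB561 and CYB5R3 had 0.17 and 0.16, with every knockdown clone above every control in both. Of all genes 15.4% had groups that did not overlap in either direction.

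Of 7 storage genes 3 were higher and 4 lower, with a median of -0.077. PCBP1, an iron chaperone that delivers iron to ferritin, had -0.20, its relative PCBP3 0.22 and HERC2, a ubiquitin ligase, 0.13. The ferritin light chain gene FTL had 8.89, 9.21 and 9.47 in the knockdown clones, against 9.10, 9.16 and 9.21 in the controls, so that clone 3 was the highest and clone 1 the lowest of all arrays. Of 9 genes of export and of hepcidin control 4 were higher, with a median of -0.025: the amyloid precursor gene APP had -0.55, NEO1, a co-receptor of the hepcidin pathway, 0.31 and FURIN, a protease, -0.25. In the list of the iron regulatory proteins and their control 4 of 5 were lower, with a median of -0.051.

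FBXL5, the iron-sensing subunit of the ligase that removes iron regulatory protein 2, had 8.85, 8.78 and 8.51 in knockdown clones 1, 2 and 3, against 9.09, 9.08 and 9.24 in the controls. Every knockdown clone lay below every control, clone 1 included (log2 fold change -0.43, SE 0.11, adjusted p = 0.326 in limma). Groups did not overlap in either direction in 15.4% of all genes. CUL1 and SKP1, its partners in the ligase, had -0.18 and -0.051. Of the 5 other measured transcripts with an iron-responsive element, all had higher means, by at most 0.13, with 0.12 for CDC42BPA, 0.13 for EPAS1 and 0.038 for FTL.

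In the haem list 13 of 17 were lower, where 51.3% of all genes were, with a median of -0.11. BLVRA, which reduces biliverdin, had 8.90, 8.94 and 8.59 in the knockdown clones, against 9.39, 9.14 and 9.35 in the controls (log2 fold change -0.49, adjusted p = 0.315 in limma). ABCB6, a porphyrin transporter, had -0.29 and the haem oxygenase gene HMOX1 -0.43. Of 17 mitochondrial iron and iron-sulfur genes 11 were lower, with a median of -0.060: the ferredoxin gene FDX1 had -0.34, the mitochondrial iron importer SLC25A37 0.32 and CISD1 -0.18. SLC25A37 had 8.19, 8.36 and 8.72 in knockdown clones 1, 2 and 3, against 8.14, 8.13 and 8.04 in the controls, with each knockdown clone above each control. For BLVRA, ABCB6, FDX1 and CISD1 each knockdown clone lay below each control. Of all genes 15.4% had groups that did not overlap in either direction.

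Of 9 genes of cytosolic iron-sulfur assembly 8 were lower, where 51.3% of all genes were, with a median of -0.14. NUBP1 had -0.25, CIAO2B -0.20 and GLRX3 -0.16. Of 11 copper genes 8 were lower, with a median of -0.097, and MEMO1, SCO1 and COX11 had -0.18, -0.11 and -0.12. Of 10 ferroptosis genes 6 were lower, with a median of -0.16, and AIFM2, a reductase that guards lipids, had -0.23, VDAC2 -0.27 and VDAC3 -0.18. No gene of these lists passed over all genes.

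**Figure D4:**
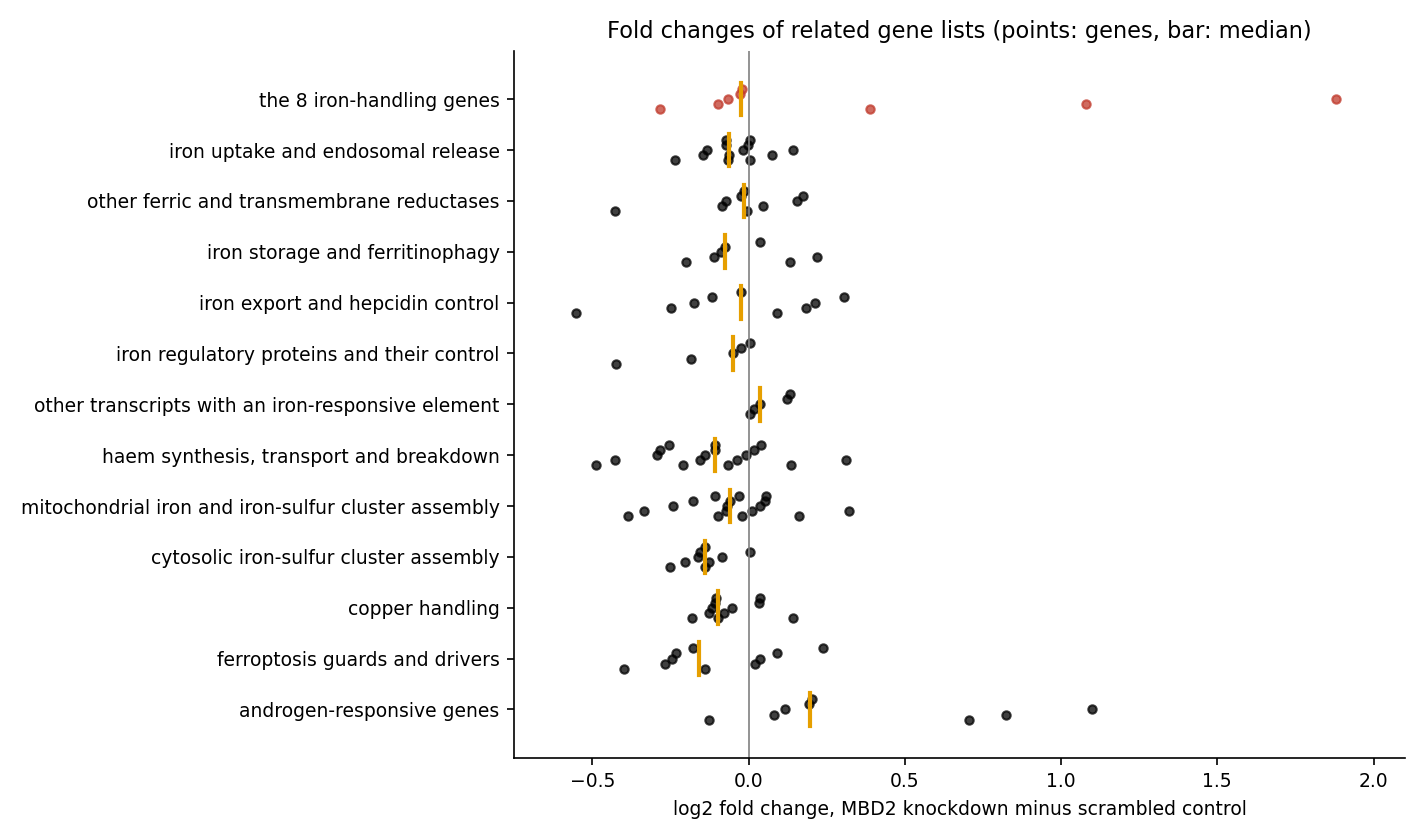
Log2 fold change, MBD2 knockdown minus scrambled control, of the 8 iron-handling genes (red) and of the measured genes of each related list (black), with the median of each as a bar. STEAP4 at 1.88 and HEPH at 1.08 lie to the right of every gene of the iron, haem, iron-sulfur, copper and ferroptosis lists.

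STEAP4 is known as an androgen-induced gene in prostate cells, so 12 androgen-responsive genes were set beside it, of which 8 were measured. Of these, 7 were higher on average in the knockdown clones and 1 lower, where 51.3% of all genes were lower. The median was 0.20, and 0 passed over all genes. At an unadjusted p under 0.05 in limma 2 were higher, TSC22D3 and NDRG1, against 3.93% of all genes. In both, every knockdown clone lay above every control, while 15.4% of all genes had groups that did not overlap in either direction. The kallikrein gene KLK3, which encodes prostate-specific antigen, had 8.66, 10.30 and 10.44 in knockdown clones 1, 2 and 3, against 8.67, 10.12 and 8.48 in the controls. It was high in clones 2 and 3, as STEAP4 was, and also in control clone 2, where STEAP4 stood at 3.86. Clones 2 and 3 lay above every control and clone 1 did not in 3 of the 8, KLK3, KLK2 and PMEPA1, against 7.72% of all genes. PMEPA1, named after its values were seen, had 8.17, 9.13 and 9.29 in knockdown clones 1, 2 and 3, against 8.87, 8.66 and 8.46 in the controls, so that clone 1 lay below every control as for STEAP4. KLK2, named likewise, had 8.41, 8.93 and 8.93, against 8.17, 8.69 and 8.83. NDRG1 had 10.06, 10.61 and 10.90, against 9.39, 9.73 and 9.99, and TSC22D3 had 8.62, 8.40 and 8.29, against 6.90, 8.03 and 7.09, highest in the clone where STEAP4 was lowest. The part of androgen response in the STEAP4 values was not tested.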

How the data were processed

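Cytoplasmic RNA of 6 LNCaP clones was measured with 1 Affymetrix human Gene ST array for each clone. The deposited log2 values were made by the authors with RMA, per the submitters' processing notes, which also name oligo and limma; no versions are given in the sources used here. The log2 scale was taken from the range of the values. The values were used as deposited. The table has 19712 features, 17334 of them with 1 gene symbol, and the feature with the highest mean stood for each gene, which left 16704 genes. Groups came from the titles.

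The groups were compared with limma 3.58.1 (lmFit, eBayes; R 4.3.3) without covariates. Benjamini-Hochberg adjustment ran over the whole table, with a threshold of 0.05. The number of arrays limits the precision. The clones are separate transfectants per the design text, and dim genes were not left out.

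The members and lists were chosen with earlier results of these data known. The naming rule gave all members, MBD2, the genes past the threshold or else the 3 with the smallest p of each list, the 2 nearest measured genes on each side of a member in RefSeq order (GRCh38.p14), and the 3 genes most correlated with each of the 2 members of widest range. COMMD1, NFS1, PMEPA1, KLK2, ZC4H2 and the markers ALB, TTR, COL1A1 and CD68 were named after their values were seen. Of the lists' genes 118 outside the members were measured, and others were not analysed here. The fit was tested on 20 simulated tables of 16704 genes in which 200 differed, and recovered 88.8% of 2-fold and 99.1% of 4-fold changes, with 4.76% of calls false. The simulated noise was drawn separately for every clone. In the real data 0 of 16704 genes passed, and MBD2, with a log2 fold change of -1.28, did not (adjusted p = 0.111 in limma). The simulated rates thus do not give the share recovered in these arrays. Numbers, tables and figures came from Python 3.11.15 with pandas 2.3.3. Alternatives were other normalizations, filters, weights, a replicate block, other features and leaving out each array.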

Additional observations from a re-analysis of the deposited data

How the results depend on the processing

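Over 17 alternatives, STEAP1 and TFRC stayed lower and SLC40A1, STEAP4 and HEPH higher wherever they were measured, and none passed except STEAP4 and HEPH in 2 alternatives each. These were the fit without knockdown clone 1 and the fit with array weights, which gave that clone the lowest weight. With array weights 2 of the 8 genes, 2 genes of the lists (FRRS1 and NDRG1) and 325 of all genes passed. Repeated quantile normalization and cyclic loess each gave 1 of all genes. Leaving out 1 array at a time gave 0 to 2 of the 8 genes, 0 of the list genes and 0 to 70 of all genes, with 70 without knockdown clone 1 and 7 without control clone 1. Across these the log2 fold change ran from 1.11 to 3.12 for STEAP4, 0.68 to 1.65 for HEPH, 0.081 to 0.61 for SLC40A1, -0.41 to -0.17 for STEAP1, -0.15 to 0.014 for STEAP2, -0.11 to 0.052 for STEAP3, -0.10 to 0.062 for SLC11A2 and -0.25 (without control clone 3) to -0.022 (without control clone 1) for TFRC. STEAP2 turned sign without knockdown clone 3 (0.014) and STEAP3 without control clone 1 (0.052) and with array weights (0.020). SLC11A2 turned sign with quantile normalization (0.030), cyclic loess (0.029), array weights (0.059), without knockdown clone 1 (0.046) and without control clone 2 (0.062). The cause was not tested, and none of these passed. MBD2 passed with array weights (-1.27), without knockdown clone 1 (-1.23) and without control clone 1 (-1.45). Leaving out the dimmest 30% of genes removed STEAP4 and HEPH, so that alternative has no value for them.

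Replicate numbers did not pair the clones: the correlations over genes of same-numbered deviations were -0.025, -0.19 and 0.17. With the number as a replicate block, 0 of the 8 genes, 0 list genes and 0 of all genes passed, with adjusted p = 0.541 for STEAP4 and 0.466 for HEPH in limma, and not every clone correlated best with its own number. Averaging knockdown clones 2 and 3 as 1 replicate was chosen after seeing the data. With 3 clones per group and dim control values, the array signal over background limits what can be said of the size of the STEAP4 and HEPH differences.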
